A study of Mus musculus with 9 samples.

Results

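Retinal ganglion cells were followed through 10 genes: Rbpms, Pou4f1, Pou4f2, Slc17a6, the neurofilament genes Nefl, Nefm and Nefh, and the surface, synuclein and tubulin markers Thy1, Sncg and Tubb3. They were taken by name from a table of 35397 genes, where each symbol matched 1 Ensembl identifier, and all 10 were among the 14588 genes tested, whose mean reached 1 FPKM (fragments per kilobase of exon, scaled to the depth of the library). The study sequenced whole-retina RNA from wild-type mice (5 libraries, numbered 1 to 5) and from db/db mice (4 libraries, numbered 1, 3, 4 and 5), a line without a working leptin receptor that becomes obese and diabetic. The labels give no age, sex, strain background, treatment or batch, and do not say whether each library is a separate animal, so p-values measure only the spread between these libraries, which may be technical.

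Ganglion cells are the output neurons of the retina. They receive signals from bipolar and amacrine cells and send spikes along axons that form the optic nerve, so they carry long-axon proteins (neurofilaments, tubulins) that shorter retinal neurons hold in smaller amounts. Rbpms, Pou4f1 and Pou4f2 are widely used to count them, Slc17a6 loads their glutamate, and loss of ganglion cells or of their function is studied in diabetic retinopathy. Rbpms, Pou4f1, Pou4f2 and Slc17a6 are close to restricted to ganglion cells in the adult retina. Neurofilaments are also made by horizontal cells, and Tubb3 and Thy1 by other inner retinal neurons. In RNA from whole retina, fewer cells of a type and less RNA per cell cannot be told apart.

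Some stretches of sequence bear on how the values can be read. The first pair are the promoters of Tubb3 and Sncg, the genes with the smallest p-values of the 10, shown so that their letters can be compared. They are the 300 bases from 250 before the transcript start to 50 bases into the transcript, taken from RefSeq on GRCm38.p6, which held such an entry for 5 of the 10 genes. Capitals mark every match on either strand to the TATA box letters TATAA, the CCAAT box letters CCAAT and the GC box letters GGGCGG. The Tubb3 window is chr8:123411303-123411602 on the plus strand, and the Sncg window is chr14:34374620-34374919 on the minus strand.
Tubb3: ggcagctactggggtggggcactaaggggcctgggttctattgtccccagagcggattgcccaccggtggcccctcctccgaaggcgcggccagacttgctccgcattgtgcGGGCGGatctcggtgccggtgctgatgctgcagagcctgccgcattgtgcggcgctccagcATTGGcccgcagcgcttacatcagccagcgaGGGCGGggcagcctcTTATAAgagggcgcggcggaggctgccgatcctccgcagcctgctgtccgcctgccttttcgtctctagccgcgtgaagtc
Sncg: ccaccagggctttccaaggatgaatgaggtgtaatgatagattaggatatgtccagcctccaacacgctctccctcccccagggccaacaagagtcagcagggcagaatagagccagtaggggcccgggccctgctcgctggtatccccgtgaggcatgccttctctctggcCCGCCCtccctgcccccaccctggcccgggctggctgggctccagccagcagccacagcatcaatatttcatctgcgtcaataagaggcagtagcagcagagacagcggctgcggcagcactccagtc

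The Tubb3 window was 67.3% GC and held a TATAA whose first match began at position -31, counted from the transcript start. The capitals TTATAA there match TATAA on both strands, so the pair of matches overlap. It also held 1 CCAAT (as ATTGG on the printed strand) and 2 copies of GGGCGG. The Sncg window was 61.3% GC, with 1 GGGCGG (as CCGCCC) and no match to the other letters. Of all 32851 RefSeq promoter windows of this length, 24.9% held TATAA, 37.4% CCAAT and 35.7% GGGCGG, and their median GC content was 52.7%. A match is a description of letters, not evidence that a factor binds there.

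The third stretch is shown because Pou4f1 and Pou4f2 encode closely related POU-domain transcription factors, and reads from shared sequence could be counted for either. Their coding sequences share a run of 71 bases, the longest in common, at chr14:104466054-104466124 in Pou4f1 and chr8:78435062-78435132 in Pou4f2, both on the minus strand of mm10.
Pou4f1 and Pou4f2: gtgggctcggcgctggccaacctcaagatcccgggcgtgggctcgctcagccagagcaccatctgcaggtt

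Of all 50-base words in the transcripts, 0.498% of those of Pou4f1 and 0.729% of those of Pou4f2 also occurred in another gene. For Slc17a6, Nefh, Thy1, Sncg and Tubb3 that share was 0, and for Rbpms it was 0.151%. Tubb3 shared at most 45 bases in a row with the other tubulins compared, in Tubb2a and Tubb2b. Nefl and Nefm differ from the rest: they lie next to each other on chromosome 14 on opposite strands, and an exon of a Nefm isoform runs through Nefl. They share 1108 exonic bases, which is 32.8% of Nefl and 19.2% of Nefm. The strand of counting is not given in the sources used here, so reads from that stretch cannot be assigned to either gene with certainty, and the values of Nefl and Nefm are uncertain to that extent.

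The libraries were deep and similar in size, with 36.6 to 47.9 M reads recovered from the steps in the FPKM values. Library db/db 1 stood apart: its median correlation with the other libraries over the tested genes was 0.935, against 0.978 to 0.988 for each of the rest. Its differences from wild type correlated with transcript length (r = -0.35 across genes, against -0.071 to 0.11 in the other 8), and its FPKM values summed to 311179, against 252832 to 268139. In db/db 1, 46.2% of all tested genes lay above the wild-type range and 36% below it. Differences in db/db 5 correlated with the GC content of the transcript (r = 0.50 across genes), and those in db/db 4 (0.29), db/db 3 (0.20) and db/db 1 (0.18) did so less, against -0.12 to 0.13 in wild type. Differences below are therefore given with all 9 libraries and without db/db 1. The part of transcript length or GC content in any result was not tested beyond the corrections stated with it.

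With all 9 libraries, none of the 10 genes passed the test for a difference between db/db and wild type (limma on log2(FPKM + 1), Benjamini-Hochberg adjusted p under 0.05 over all 14588 genes). The background was 0.5% of tested genes, or 73. At an unadjusted p under 0.05 there were 2 of the 10, Tubb3 and Sncg, against 19.3% of tested genes, and limma-voom on the recovered reads called none. The median log2 difference of the 10 genes was 0.071 (db/db minus wild type), beside 0.0035 over all tested genes, with 6 above 0 and 4 below. Tubb3 alone passed without db/db 1, which is 1 of 10 against a background of 10.6% (4.72% with db/db higher), a share near the background. The median of the 10 was then -0.0071, beside -0.017 over all tested genes.

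**Figure D1:**
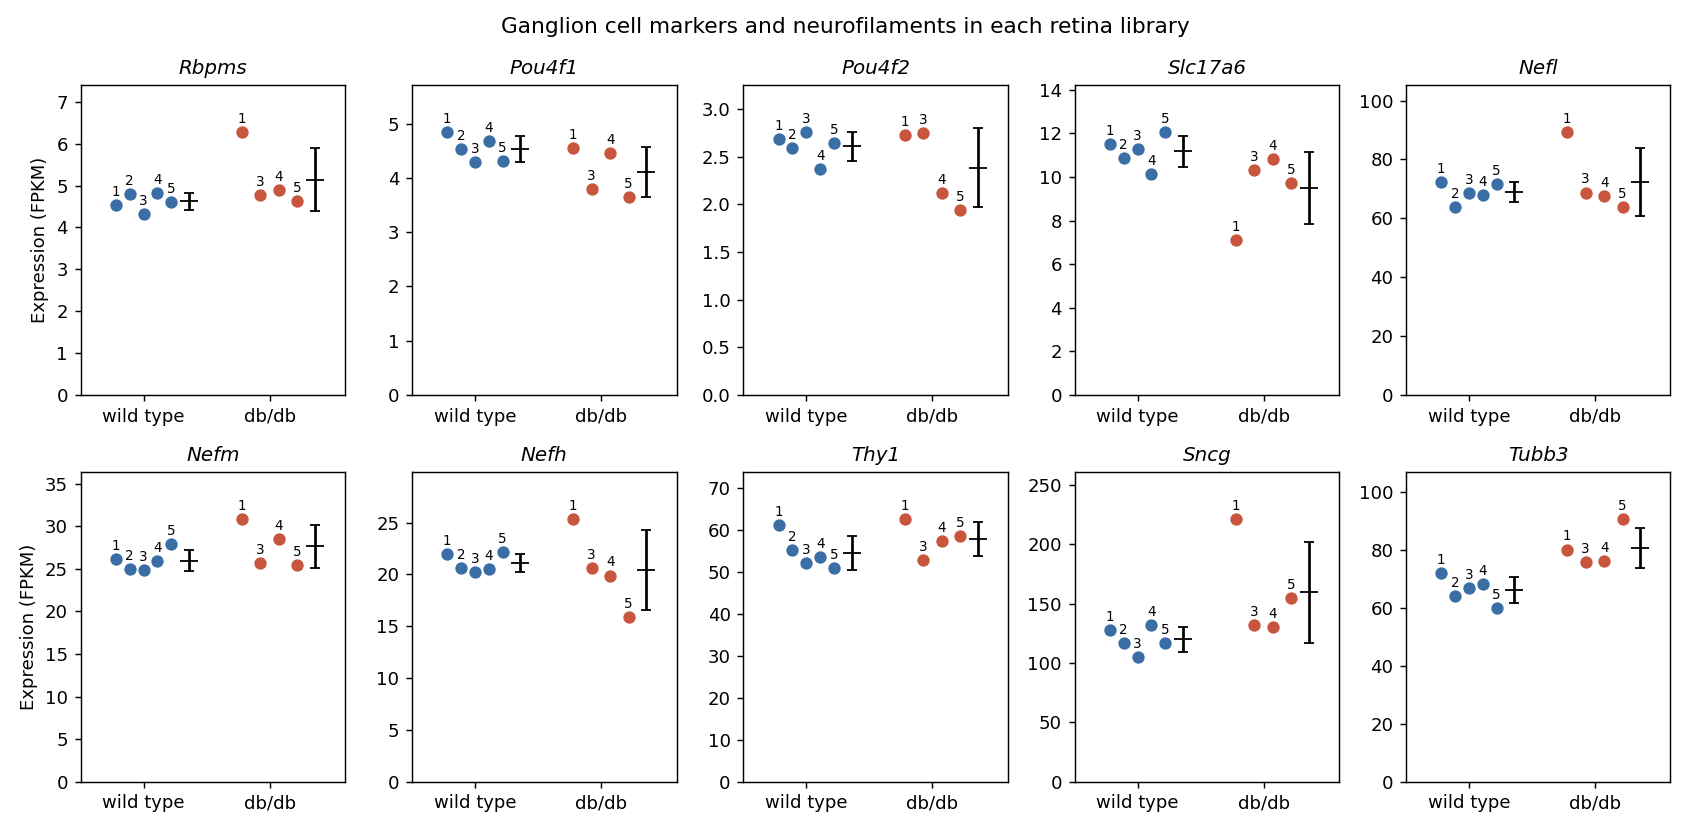
Expression of the 10 genes in each library, in FPKM, each panel with its own vertical axis; points are libraries, wild type on the left and db/db on the right, bars are the mean and SD, and db/db 1 is marked. In Tubb3 the db/db libraries (75.8 to 90.7 FPKM) all lie above the wild-type libraries (60.1 to 72.2 FPKM), while in the other 9 genes the groups overlap.

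The levels of the 10 genes span a wide range, given here per kilobase of exon. In wild type the order was Sncg at 119.9 ± 10.6 FPKM (SD, n = 5), Nefl at 68.9 ± 3.35, Tubb3 at 66.3 ± 4.50, Thy1 at 54.6 ± 4.03, Nefm at 26.0 ± 1.21, Nefh at 21.1 ± 0.902, Slc17a6 at 11.2 ± 0.723, Rbpms at 4.62 ± 0.209, Pou4f1 at 4.53 ± 0.237 and Pou4f2 at 2.61 ± 0.148. Neighbours in this order overlapped between libraries for Nefl and Tubb3, for Tubb3 and Thy1, and for Rbpms and Pou4f1. In db/db Tubb3 stood above Nefl, with overlap, and the rest of the order was the same. These levels rest on the length of all annotated exons together, which is 2.57 times the longest transcript for Rbpms, 1.73 times for Thy1 and 1.57 times for Nefm, so a level per transcript would be higher for these. Behind the values lie between 228 reads (Pou4f2 in db/db 5) and 13915 reads (Nefl in db/db 1).

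Of the markers used to count ganglion cells, Rbpms encodes an RNA-binding protein found in nearly all of them. Rbpms (ENSMUSG00000031586, chr8:33782643-33929863, minus strand) stood at 4.53, 4.81, 4.33, 4.83 and 4.61 FPKM in wild type 1 to 5, and at 6.27, 4.77, 4.89 and 4.63 FPKM in db/db 1, 3, 4 and 5. Library db/db 1 was the highest of all 9, db/db 4 was just above the wild-type range, and the other 2 lay within it. The fitted log2 difference was 0.12 ± 0.082 (SE), with a 95% interval from -0.063 to 0.31 and a limma adjusted p of 0.438. Without db/db 1 it was 0.037 (adjusted p = 0.654, limma).

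Pou4f1 and Pou4f2, also known as Brn3a and Brn3b, are transcription factors of ganglion cell differentiation and survival. Pou4f1 (ENSMUSG00000048349, chr14:104461676-104467999, minus strand) was measured at 4.84, 4.52, 4.29, 4.67 and 4.30 FPKM across the wild-type libraries and at 4.55, 3.79, 4.46 and 3.65 FPKM in db/db. Libraries db/db 3 and db/db 5 lay below the whole wild-type range, and db/db 1 and db/db 4 lay inside it. On the log2 scale the groups differed by -0.12 (95% interval -0.28 to 0.048, limma adjusted p = 0.404), and without db/db 1 it was -0.16 (adjusted p = 0.148, limma).

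Pou4f2 (ENSMUSG00000031688, chr8:78433010-78436645, minus strand) was measured at 2.69, 2.59, 2.76, 2.37 and 2.64 FPKM across the wild-type libraries and at 2.73, 2.75, 2.12 and 1.94 FPKM in db/db. Here db/db 4 and db/db 5 were the low libraries, and db/db 1 and db/db 3 sat at the upper end of the wild-type range. The log2 difference was -0.10 (95% interval -0.30 to 0.097, limma adjusted p = 0.548), and -0.15 without db/db 1 (adjusted p = 0.260, limma). The ratio of Pou4f1 to Pou4f2 ranged from 1.56 to 1.97 in wild type and from 1.38 to 2.11 in db/db, with overlap. Under each alternative that kept them, Rbpms stayed above 0 and both Pou4f genes stayed below 0, and none of the 3 was called.

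Slc17a6 encodes VGLUT2, the transporter that fills the synaptic vesicles of ganglion cells with glutamate. Slc17a6 (ENSMUSG00000030500, chr7:51622006-51671119, plus strand) stood at 11.5, 10.8, 11.3, 10.1 and 12.1 FPKM across the wild-type libraries and at 7.09, 10.3, 10.8 and 9.71 FPKM in db/db. Library db/db 1 lay far below all others, db/db 5 lay just below the wild-type range, and the other 2 lay within it. The fitted log2 difference was -0.23 (95% interval -0.47 to 0.018, limma adjusted p = 0.288), and without db/db 1 it was -0.11 (adjusted p = 0.256, limma). Slc17a6 has the lowest GC content of the 10 transcripts (42.9%), and after GC correction without db/db 1 its difference was 0.011.

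Among the other genes of vesicular glutamate loading, Slc17a8 (VGLUT3, carried by a class of amacrine cells) was lower in every db/db library than in any wild-type one. It stood at 4.10 ± 0.296 FPKM (SD, n = 5) across wild type, against 2.82 ± 0.390 FPKM (SD, n = 4) across db/db, a log2 difference of -0.42 (limma adjusted p = 0.0607). Without db/db 1 the difference was -0.35 and passed the test (adjusted p = 0.0182, limma), and with GC correction as well it was -0.26 (adjusted p = 0.0337, limma). Slc17a7 (VGLUT1, of photoreceptors and bipolar cells) stood at 258.1 ± 11.5 FPKM across wild type, against 267.9 ± 17.2 FPKM across db/db, with overlap (log2 difference 0.052, limma adjusted p = 0.695, and 0.097 without db/db 1). Slc17a6 made up 3.81 to 4.41% of the summed FPKM of these 3 transporters in wild type and 2.80 to 3.85% in db/db.

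The neurofilament subunits form the intermediate filaments that set the calibre of long axons, with the light chain NEFL as the core on which the medium and heavy chains NEFM and NEFH assemble. Nefl (ENSMUSG00000022055, chr14:68083863-68089095, plus strand) stood at 72.5, 64.0, 68.7, 67.8 and 71.5 FPKM across the wild-type libraries and at 89.3, 68.8, 67.6 and 63.8 FPKM in db/db. Library db/db 1 was above the wild-type range and db/db 5 marginally below it. On the log2 scale the groups differed by 0.059 (95% interval -0.16 to 0.28, limma adjusted p = 0.758), and without db/db 1 it was -0.045 (adjusted p = 0.590, limma).

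Nefm (ENSMUSG00000022054, chr14:68082590-68124846, minus strand) stood at 26.1, 25.0, 24.9, 25.95 and 27.9 FPKM across the wild-type libraries and at 30.9, 25.7, 28.5 and 25.5 FPKM in db/db. Libraries db/db 1 and db/db 4 were above the wild-type range and the other 2 inside it. The log2 difference was 0.083 (95% interval -0.077 to 0.24, limma adjusted p = 0.538), and 0.030 without db/db 1 (adjusted p = 0.741, limma).

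Nefh (ENSMUSG00000020396, chr11:4938754-4948064, minus strand) stood at 21.97, 20.6, 20.2, 20.5 and 22.2 FPKM across the wild-type libraries and at 25.4, 20.6, 19.9 and 15.9 FPKM in db/db. Its db/db libraries spread to both sides, with db/db 1 the highest and db/db 5 the lowest of all 9. The fitted log2 difference was -0.060 (95% interval -0.31 to 0.19, limma adjusted p = 0.784), and -0.17 without db/db 1 (adjusted p = 0.188, limma). With GC correction as well it was -0.27 (95% interval -0.48 to -0.060, adjusted p = 0.120, limma), which did not pass. With only db/db 5 left out and no correction, the difference turned to 0.048. On the log2 scale db/db 1 stood at 0.26 from the wild-type mean, and db/db 3, 4 and 5 at -0.032, -0.079 and -0.38.

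The summed level of the 3 subunits was 109.6 to 121.6 FPKM over the wild-type libraries, against 105.2 to 145.5 FPKM over the db/db ones. Of that sum Nefl made up 58.4 to 60.4% in wild type and 58.3 to 61.4% in db/db, and Nefm 21.7 to 22.9% and 21.2 to 24.6%. Nefh made up 17.8 to 18.8% in wild type and 17.4, 17.9, 17.1 and 15.1% in db/db 1, 3, 4 and 5, so that only db/db 3 lay inside the wild-type range. Because of the stretch that Nefl and Nefm share, the sum and all 3 shares carry the uncertainty given above.

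Horizontal cells also make neurofilaments, so the values of their markers are given beside them. The summed FPKM of Lhx1, Onecut1, Onecut2, Calb1 and Prox1 was 37.0 to 40.2 in wild type and 33.9 to 36.3 in db/db, without overlap. None of the 5 was at 0, 3 of 5 were tested, and none of these was called or free of overlap by itself. Their median log2 difference was 0.023, or -0.14 without db/db 1. In db/db 1, Calb1 (19.3 FPKM) was the highest of all 9 libraries and Prox1 (14.7 FPKM) the lowest. Onecut1 and Onecut2 lay below the filter, with Onecut1 at 0.0422 FPKM in db/db 1. Calb1 and Prox1, which make up most of the sum, are also made by other retinal neurons. The part of horizontal cells in the neurofilament values was not tested. Myelin genes, made by the oligodendrocytes of the optic nerve, were highest in wild type 1 (47.7 FPKM summed over 9 genes, against 14.6 to 25.0 in the other wild-type libraries and 14.1 to 19.6 in db/db). Olig2, at 0 in db/db 4, was the lowest of them. Among the wild-type libraries, Pou4f1, Thy1, Tubb3 and Nefl were also highest in wild type 1, while Nefm, Nefh and Slc17a6 were highest in wild type 5, Sncg and Rbpms in wild type 4 and Pou4f2 in wild type 3. The part of optic nerve tissue in these values was not tested.

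**Figure D2:**
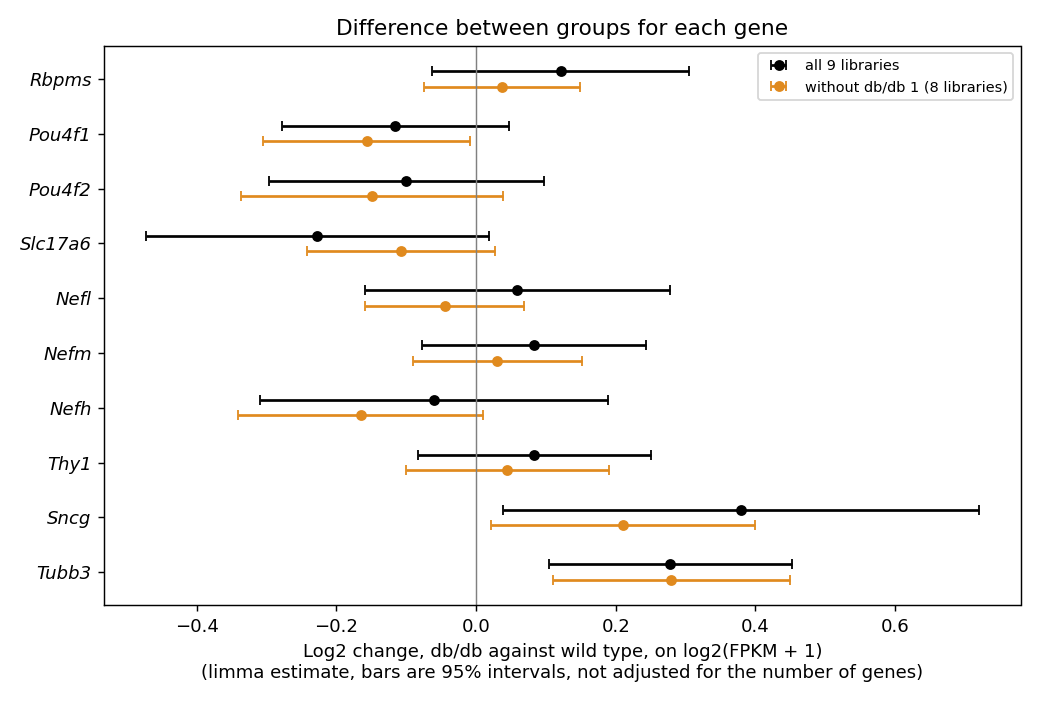
Log2 difference between db/db and wild type for each gene with its 95% interval, on log2(FPKM + 1), for all 9 libraries (black) and without db/db 1 (orange). The intervals, not adjusted for the number of genes, lie above 0 in both for Tubb3 (0.10 to 0.45 with all 9 libraries) and Sncg (0.038 to 0.72), and that of Pou4f1 lies below 0 without db/db 1.

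Thy1 encodes a small glycoprotein anchored to the surface of ganglion cells and other neurons. Thy1 (ENSMUSG00000032011, chr9:44043384-44048579, plus strand) stood at 61.2, 55.3, 52.1, 53.6 and 50.9 FPKM across the wild-type libraries and at 62.65, 52.8, 57.5 and 58.6 FPKM in db/db. Only db/db 1 lay outside the wild-type range, just above it. On the log2 scale the groups differed by 0.083 (95% interval -0.084 to 0.25, limma adjusted p = 0.555), and 0.045 without db/db 1 (adjusted p = 0.678, limma).

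Sncg encodes gamma-synuclein, a small soluble protein abundant in ganglion cell bodies and axons. Sncg (ENSMUSG00000023064, chr14:34370274-34374789, minus strand) stood at 128, 117, 105, 132 and 117 FPKM across the wild-type libraries and at 221, 132, 130.3 and 154 FPKM in db/db. Library db/db 1 was far above the rest and db/db 5 above the wild-type range, while db/db 3 and db/db 4 sat at its upper end. The mean was 159.5 ± 42.7 FPKM (SD, n = 4) in db/db, 1.33 times that of wild type. The log2 difference was 0.38 ± 0.15 (SE), with a 95% interval from 0.038 to 0.72, an unadjusted p of 0.0328 and a limma adjusted p of 0.220. Without db/db 1 it was 0.21 (adjusted p = 0.130, limma), and over all 21 alternatives it lay between 0.12 and 0.46 without being called. Sncg has the shortest transcript of the 10 (852 bases). With correction for transcript length over all 9 libraries the difference was 0.27 (95% interval 0.10 to 0.43, adjusted p = 0.0739, limma) and did not pass. With GC correction and without db/db 1 it was 0.12 (95% interval -0.022 to 0.27, adjusted p = 0.284, limma).

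Tubb3 encodes class III beta-tubulin, a microtubule subunit of neurons that is used to stain ganglion cells and their axons. Tubb3 (ENSMUSG00000062380, chr8:123411424-123422015, plus strand) stood at 72.2, 64.2, 66.9, 68.2 and 60.1 FPKM across the wild-type libraries and at 80.2, 75.8, 76.1 and 90.7 FPKM in db/db. All 4 db/db libraries were above all 5 wild-type libraries, with db/db 5 the highest. Groups without overlap were found for 11.6% of tested genes with all 9 libraries and for 5.2% with db/db higher, and Tubb3 was the only one of the 10. The means were 66.3 ± 4.50 FPKM (SD over 5 libraries) for wild type against 80.7 ± 6.98 FPKM (SD over 4) for db/db, a ratio of 1.22.

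The log2 difference of Tubb3 was 0.28 ± 0.078 (SE), with a 95% interval from 0.10 to 0.45, an unadjusted p of 0.00537 and a limma adjusted p of 0.107, which did not pass. Without db/db 1 it was also 0.28 and passed (adjusted p = 0.0459, limma). With GC correction as well it was 0.19 and did not pass (adjusted p = 0.0982, limma). The Tubb3 transcript is 57.9% GC, and db/db 5, its highest library, is the one whose differences correlated most with GC content. In db/db 5, Nefh (58.4% GC) and Nefm (57.8% GC) stood at -0.38 and -0.026 from their wild-type means on the log2 scale. Sncg (56.6% GC) and Thy1 (55.8% GC) stood at 0.37 and 0.10 there. The part of GC content in the Tubb3 value was not tested beyond the correction given. Amacrine cells also make some Tubb3 and Thy1, and the summed FPKM of 9 of their genes, none at 0, was 187.2 to 193.3 in wild type and 149.4 to 193.8 in db/db, where db/db 1 was the low one. None of the 9 was called with all 9 libraries, and Gad2 (-0.19, adjusted p = 0.0395) and Tfap2b (-0.25, adjusted p = 0.0327, limma) passed without db/db 1. That is 2 of 9 lower, against 5.84% of tested genes. With GC correction as well neither passed (Gad2 -0.11, adjusted p = 0.0996, and Tfap2b -0.19, adjusted p = 0.0661, limma). The part of amacrine cells in the Tubb3 value was not tested. Over the 21 alternatives the Tubb3 difference lay between 0.16 and 0.31, and 2 of them called it: leaving out db/db 1, and that together with length correction (0.29, adjusted p = 0.0251, limma), under which 13.6% of tested genes were called. Length correction with all 9 libraries gave 0.18 (95% interval -0.046 to 0.41, adjusted p = 0.320, limma) and did not call it.

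**Figure D3:**
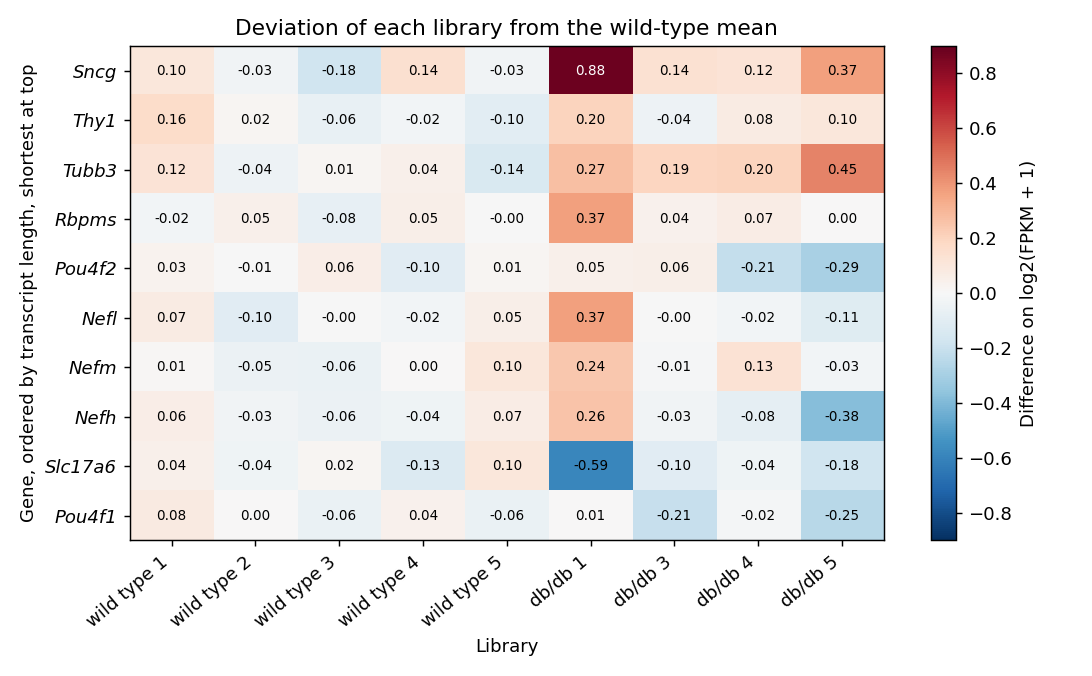
Deviation of each gene in each library from its wild-type mean, in log2(FPKM + 1), with genes ordered by the length of the longest transcript. In the db/db 1 column values run from 0.88 for Sncg to -0.59 for Slc17a6, and in the db/db 5 column Tubb3 (0.45) and Sncg (0.37) are high and Nefh (-0.38) low.

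The 10 genes did not move as a block within a library. In db/db 1, 7 of the 10 lay above the wild-type range, against 46.2% of all tested genes. Slc17a6 lay below it, as did 36% of all tested genes. Deviations from the wild-type mean in db/db 1 were 0.88 (Sncg), 0.37 (Rbpms), 0.37 (Nefl), 0.27 (Tubb3) and -0.59 (Slc17a6) on the log2 scale. Pou4f1 (0.0068) and Pou4f2 (0.047) stayed inside that range in this library. In db/db 5 Tubb3 (0.45) and Sncg (0.37) were high, and Nefh (-0.38), Pou4f2 (-0.29) and Pou4f1 (-0.25) were low. The ratio of Tubb3 to Nefl was 0.841 to 1.01 in wild type and 0.898 to 1.42 in db/db. That of Sncg to Rbpms was 24.3 to 28.3 and 26.6 to 35.3, so both ratios overlapped.

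Correlations between pairs of the 10 genes over libraries are descriptions that share library, depth and GC effects. Nefl followed Nefh (r = 0.81 over 9 libraries, 0.74 over 8 without db/db 1), while its r with Nefm of 0.80 became 0.40 without db/db 1. Sncg followed Tubb3 (0.67 and 0.84) and ran against Slc17a6 (-0.94 and -0.74). Nefh ran against Tubb3 (-0.41 and -0.82). The r of Rbpms with Nefl turned from 0.79 to -0.37 when db/db 1 was left out. By Pearson's r over 9 libraries with the mean deviation of Rbpms, Pou4f1 and Pou4f2, the 5 most alike of 8478 other genes were Gm3788 (0.98), Gm9844 (0.97), Chmp2b (0.97), Mbip (0.97) and Gm10257 (0.97). Over 8 libraries without db/db 1 they gave 0.93 to 0.97. Those 8 are among the 9 used to pick the genes, so these values are no separate check of the likeness. Chmp2b encodes a subunit of the ESCRT-III membrane-scission complex and is no ganglion cell marker.

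Further genes were read as lists of known ganglion cell and axon genes. None of their tested members was called with all 9 libraries by limma without correction. Length correction over all 9 libraries called 513 of the 14588 tested genes. Of the 2 genes with the smallest p in each list, these were Map2 (adjusted p = 0.0155), Slc17a8 (0.0231), Dctn1 (0.0318) and Chrnb3 (0.0472, limma). Those 2 per list were picked by their p in these data, so their number cannot be set against the share of all tested genes. Without correction, limma-voom called 1 gene over all 8 lists, Map2, against 112 of the 14490 genes in that fit. At an unadjusted p under 0.05, against 19.3% of tested genes, there were 4 of 14 other ganglion cell genes, 2 of 12 ganglion cell type genes, 1 of 3 other intermediate filaments, 5 of 17 tubulins and microtubule proteins, 4 of 11 transport motors, and none of the initial segment or injury genes. Of 16 other ganglion cell genes (transcription factors, Elav and acetylcholine receptor genes and the like), 14 were tested, and the median log2 difference was -0.078, or -0.057 without db/db 1. Groups did not overlap for 2 genes with db/db higher and 1 lower, against 5.2% and 6.38% of all tested genes.

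Chrnb3, a nicotinic acetylcholine receptor subunit, was the lower one. It stood at 14.5, 14.03, 14.5, 13.7 and 14.8 FPKM across the wild-type libraries and at 10.1, 12.4, 13.1 and 11.6 FPKM in db/db. Its log2 difference was -0.26 (limma adjusted p = 0.107), and without db/db 1 it was -0.20 and passed (adjusted p = 0.0361, limma), but not with GC correction as well (adjusted p = 0.106). Without db/db 1 that is 1 of 14 lower, against 5.84% of tested genes. In the fit with GC correction and without db/db 1, Mef2c, a transcription factor, was the only one of the list to pass (0.21, adjusted p = 0.0456, limma). That is 1 of 14, against 4.9% of tested genes in either direction, a share near the background. With all 9 libraries Mef2c had -0.057. Rbpms2, a paralogue of Rbpms made by ganglion cells, and Chrna6, another nicotinic receptor subunit, were the higher ones, chosen here after their values were seen. Rbpms2 stood at 9.08 ± 0.484 FPKM (SD, n = 5) across wild type, against 10.8 ± 1.55 FPKM (SD, n = 4) across db/db (log2 difference 0.22, limma adjusted p = 0.208, and 0.14 without db/db 1). Chrna6 stood at 37.8 ± 0.224 and 40.2 ± 1.84 FPKM (0.088, limma adjusted p = 0.380, and 0.059 without db/db 1). Elavl4, a neuronal RNA-binding protein, stood at 3.73 ± 0.285 and 3.02 ± 0.494 FPKM (-0.24, limma adjusted p = 0.199, and -0.18 without db/db 1).

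Of 17 genes listed for ganglion cell types, not all of them limited to a single type, 12 were tested. Their median log2 difference was -0.067, which was -0.0097 without db/db 1. Penk, which encodes enkephalin precursor and is also made by amacrine cells, varied most: it stood at 32.8, 15.7, 20.1, 50.3 and 41.3 FPKM across the wild-type libraries and at 86.8, 35.99, 43.8 and 83.3 FPKM in db/db. The groups overlapped, and the log2 difference was 0.96 ± 0.38 (SE, limma adjusted p = 0.213), or 0.77 without db/db 1. Eomes, a factor of the melanopsin ganglion cells, stood at 1.999 ± 0.0795 FPKM across wild type, against 1.69 ± 0.208 FPKM across db/db, without overlap (-0.16, limma adjusted p = 0.247, and -0.12 without db/db 1).

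Cartpt and Spp1 passed in this list without db/db 1, 2 of 12 lower against 5.84% of tested genes. Cartpt, a neuropeptide precursor of direction-selective ganglion cells, stood at 60.1, 50.9, 56.6, 54.1 and 50.9 FPKM across the wild-type libraries and at 82.9, 39.0, 38.6 and 41.7 FPKM in db/db, so db/db 1 was the highest library of all and the other db/db libraries the lowest. Its log2 difference was -0.18 with all 9 (limma adjusted p = 0.644) and -0.44 without db/db 1 (adjusted p = 0.0108, limma), or -0.50 with GC correction as well (adjusted p = 0.00743). Spp1, osteopontin, which marks alpha ganglion cells, had -0.23 with all 9 (limma adjusted p = 0.454) and -0.40 without db/db 1 (adjusted p = 0.0354, limma), but did not pass with GC correction as well (-0.30, adjusted p = 0.144).

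**Figure D4:**
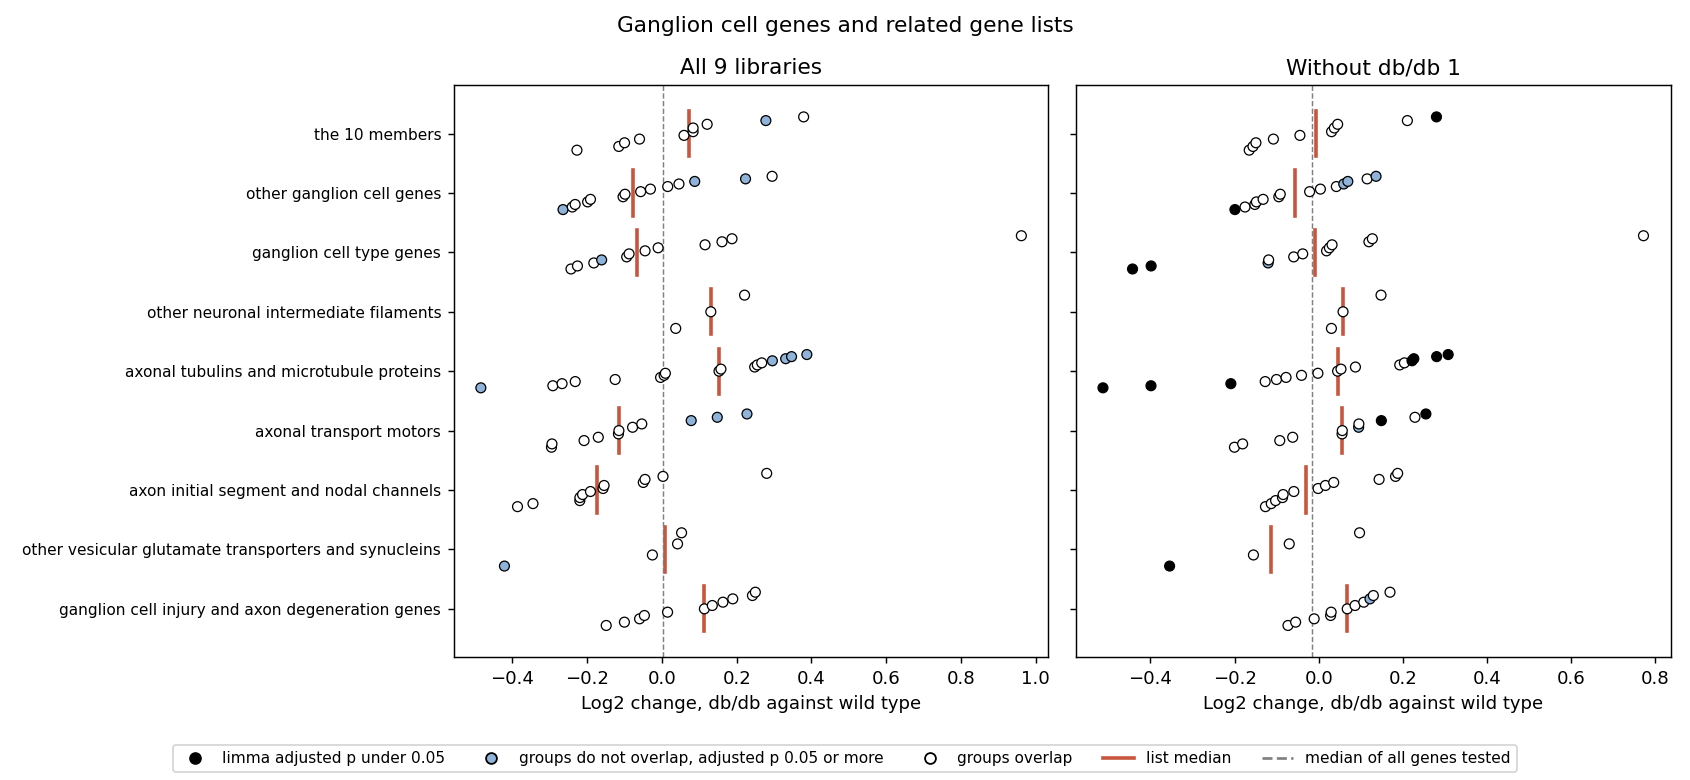
Log2 difference between db/db and wild type for the tested genes of each list, for all 9 libraries (left) and without db/db 1 (right); red lines are list medians and the dashed line is the median of all tested genes. With all 9 libraries no point is filled black (adjusted p under 0.05), and without db/db 1 the tubulin list has such points on both sides of 0.

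The other tubulins and microtubule proteins formed a list of 17, all tested, with a median log2 difference of 0.15, which was 0.045 without db/db 1. In 4 of them (Tubb2a, Tubb4b, Tubb5 and Tuba1b) every db/db library was above every wild-type one, against 5.2% of tested genes, and in Map2 every one was below. Tubb2a stood at 119.9, 104.1, 101.6, 104.1 and 99.8 FPKM across the wild-type libraries and at 139.9, 131.0, 120.9 and 142.1 FPKM in db/db, with a log2 difference of 0.33 (limma adjusted p = 0.0735). The same 4 passed without db/db 1, with differences from 0.22 (Tuba1b, adjusted p = 0.0452, limma) to 0.31 (Tubb2a, adjusted p = 0.0317). That is 4 of 17 higher, against 4.72% of tested genes, and 3 of 17 passed lower, against 5.84%. With GC correction as well, Tubb5 (0.25, adjusted p = 0.0267) was the only higher one to pass, against 4.9% of tested genes in either direction. These tubulins are made by all cells to some degree and share sequence with each other.

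Map2, the microtubule protein of dendrites, stood at 33.1, 32.5, 32.1, 31.0 and 35.0 FPKM across the wild-type libraries and at 19.2, 24.9, 27.0 and 22.1 FPKM in db/db. The fitted log2 difference was -0.48 (95% interval -0.69 to -0.28, limma adjusted p = 0.0580), and without db/db 1 it was -0.40 and passed (adjusted p = 0.0137), also with GC correction (-0.36, adjusted p = 0.0227, limma). Stmn1 and Stmn2, stathmins that bind tubulin dimers, also passed without db/db 1, with -0.51 (adjusted p = 0.0158) and -0.21 (adjusted p = 0.0415, limma). With GC correction as well Stmn1 still passed (-0.52, adjusted p = 0.0236), and Stmn2 did not (-0.065, adjusted p = 0.575, limma). Stmn1 stood at 55.5 FPKM in db/db 1 and at 21.1 to 30.1 FPKM in the other db/db libraries, against 34.9 to 36.8 FPKM in wild type.

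Axonal transport motors (11, all tested) had a median of -0.12 with all 9 libraries and 0.056 without db/db 1. Dctn1, the large dynactin subunit, had means of 89.9 ± 3.24 FPKM (SD over 5 libraries) for wild type, against 105.5 ± 5.99 FPKM (SD over 4) for db/db, without overlap (0.23, limma adjusted p = 0.0986; 0.25 and adjusted p = 0.0192 without db/db 1, but 0.114 with GC correction as well). Klc1 and Klc2, kinesin light chains, also did not overlap, so that 3 of 11 motors were higher in every db/db library, against 5.2% of tested genes. Klc2 passed without db/db 1 (0.15, adjusted p = 0.0447, limma) but not with GC correction as well (0.040, adjusted p = 0.491), and 2 of 11 motors passed higher without db/db 1, against 4.72% of tested genes. Kif5c, a kinesin heavy chain, stood at 34.4 ± 1.43 and 28.1 ± 4.32 FPKM (-0.30, limma adjusted p = 0.152, and -0.20 without db/db 1).

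Channels and scaffolds of the axon initial segment and node, where ganglion cell spikes start, had a median of -0.17 over 12 tested genes of 13, with none called and none without overlap. In db/db 1, 10 of the 12 were below the wild-type range, against 36% of all tested genes. Without that library the list median was -0.030. Kcna2, a potassium channel, stood at 9.11 ± 0.279 FPKM (SD, n = 5) over wild type and 8.12 ± 0.928 FPKM (SD, n = 4) over db/db (-0.15, limma adjusted p = 0.284, and -0.10 without db/db 1).

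Genes that rise in injured ganglion cells or act in axon degeneration numbered 16, of which 11 were tested. None was called with or without db/db 1, none had an unadjusted p under 0.05 with all 9 libraries, and the median was 0.11 (0.068 without db/db 1). Trib3, a stress kinase-like protein, stood at 3.16 ± 0.543 FPKM (SD, n = 5) across wild type, against 3.97 ± 0.930 FPKM (SD, n = 4) across db/db (0.25, limma adjusted p = 0.343, and 0.13 without db/db 1). Nmnat2, the NAD-making enzyme that keeps axons intact, stood at 8.93 ± 0.704 and 7.99 ± 1.05 FPKM (-0.15, limma adjusted p = 0.389, and -0.073 without db/db 1). Of the other intermediate filament genes, Ina (alpha-internexin, a partner of the neurofilaments) stood at 30.02 ± 0.792 and 30.8 ± 1.23 FPKM (0.037, 95% interval -0.082 to 0.16, limma adjusted p = 0.722, and 0.030 without db/db 1), and Vim, a filament of Müller glia, at 25.7 ± 1.63 and 30.3 ± 4.36 FPKM (0.22, limma adjusted p = 0.248, and 0.15 without db/db 1).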

How the data were processed

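The authors deposited 1 table of FPKM for 35397 genes. Per the submitters' processing notes the build was mm10. The aligner, counter, annotation and strand of counting were not given in the sources used here. Its columns, named Control or DR, were matched by number to the wild-type and db/db samples, an inference from the names. Positions, lengths and GC content came from GENCODE M21. The 10 genes, the lists and the naming rule were chosen with earlier results of these data known.

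Reads were recovered by multiplying FPKM by union exon length: 99.0 to 99.2% of low values were whole within 0.1 read. Genes whose mean over 9 libraries reached 1 FPKM were tested as log2(FPKM + 1), which understates changes of low genes, with limma 3.58.1 in R 4.3.3 (lmFit, eBayes with trend) and Benjamini-Hochberg adjustment over all 14588. No list was tested as a set.

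Besides the 10 genes, up to 4 called genes of each list were named, otherwise the 2 with the smallest p. The list of ganglion cell types held Fstl4 under both of its names and counts it once. Some genes on the lists are not reported here. Rbpms2, Chrna6, Cartpt, Spp1, Tubb4b, Tubb5, Tuba1b, Stmn1, Stmn2, Klc1, Klc2, Gad2, Tfap2b and Mef2c were named after their values were seen. Alternatives were pseudocount, filter, trend, scaling, GC correction in 20 bins, the replicate number as a block, limma-voom on the reads and leaving out each library. Length correction, alone and without db/db 1, was added after seeing the data. The fit was tested on simulated data. Figures used matplotlib 3.10.9 in Python 3.11.15.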

Additional observations from a re-analysis of the deposited data

Results flagged for a closer look

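In 64 groups of 4 or 5 values (each of the 10 genes, their ratios and the summed marker lists in each group), the highest or lowest library was compared with the spread of its group by Dixon's ratio, which by chance picks about 1 in 20 groups. It picked 2. Rbpms stood at 6.27 FPKM in db/db 1, far from the other 3 db/db libraries (Dixon's ratio 0.843). The summed FPKM of 9 amacrine cell genes was 149.4 in db/db 1, below the other db/db libraries (Dixon's ratio 0.835).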

How the results depend on the processing

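The number of the 10 genes called was 0 in 19 of 21 alternatives, and 1 (Tubb3) without db/db 1 and with length correction without db/db 1 (1). Leaving out each library in turn gave 0 to 1. Genes called over the whole table, 73 in the report, numbered 9 with no filter, 30 with a filter at 5 FPKM (which drops Rbpms, Pou4f1 and Pou4f2), 6 with GC correction, 112 with limma-voom, 513 with length correction, 715 with GC correction without db/db 1, 1991 with length correction without db/db 1, and 4 to 1540 leaving out each library (1540 without db/db 1). The cause was not tested. The median difference of the 10 genes was -0.046 with quantile normalization, -0.035 with GC correction and -0.029 with GC correction without db/db 1, while the median of all genes moved by less than 0.1 under each. The sign turned for Nefl (-0.059) and Thy1 (-0.033) with quantile normalization, for Nefm (-0.035) and Thy1 (-0.034) with GC correction, and for Slc17a6 (0.011), Nefl (-0.026), Nefm (-0.057) and Thy1 (-0.033) with GC correction without db/db 1. It also turned for Thy1 with length correction (-0.013) and for Nefl with length correction without db/db 1 (-0.041). Leaving out each library gave Nefl -0.045 to 0.11 and Nefh -0.17 to 0.048. Rbpms, Pou4f1, Pou4f2, Sncg and Tubb3 kept their sign under every alternative run.

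With the replicate number as a block, 0 of the 10 genes and 2 genes over the whole table were called. The numbers did not pair the libraries: same-numbered libraries correlated at 0.043, 0.046, -0.18 and 0.13 in their deviations from the group means, and 2 of 8 correlated best with their own number. Wild type 2 has no db/db partner, so this fit rests on 8 libraries.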
